A study of Mus musculus with 10 samples.

Results

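The unfolded protein response and the folding machinery of the endoplasmic reticulum (ER) are described here through 31 genes, a list made by name and role, although earlier results of these data were known when it was made. They comprise 5 sensors and transcription factors, 13 chaperones and cochaperones, 5 disulfide isomerases and 8 degradation factors. All 31 were found among the 55450 genes of the count table, and all 31 had enough counts to be tested. Messenger RNA was measured in peelings of the corneal endothelium, the cell layer that lines the back of the cornea and pumps fluid out of it, from C57BL/6 mice at postnatal week 12. Mice lacking both copies of the membrane transporter gene Slc4a11 (Slc4a11-/-, KO) were compared with Slc4a11+/+ mice (WT), in 5 libraries of each genotype, and each library was a pool of 6 peelings from 3 animals. The sources used here do not give the construction of the Slc4a11 allele, the sex of the animals or whether the genotypes were littermates. The comparison asks how loss of Slc4a11 changes gene expression in this cell layer.

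Proteins that enter the ER are folded there by chaperones, joined by disulfide bonds and fitted with sugar chains, and those that fail to fold are drawn back into the cytosol and degraded. The unfolded protein response adjusts this capacity through 3 membrane sensors. IRE1 (Ern1) splices the message of the transcription factor Xbp1, ATF6 is cut in the Golgi to release a transcription factor, and PERK (Eif2ak3) phosphorylates a translation factor and so slows protein synthesis. All 3 are held inactive by the chaperone BiP (Hspa5), and their targets include BiP itself, other chaperones, isomerases and degradation factors. The corneal endothelium lays down and maintains a collagen-rich basement membrane, Descemet's membrane, so that secretory folding is part of its normal work. Counts per gene show the amount of a message. They do not show Xbp1 splicing, cleavage of ATF6 or phosphorylation of PERK.

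Values are CPM, read counts scaled to library size with TMM factors, and a gene was called where edgeR's quasi-likelihood F test gave a Benjamini-Hochberg adjusted p under 0.05 over all 17729 genes tested. Slc4a11 lay between 3489 and 4357 CPM in the WT libraries (3791 ± 362, SD, n = 5) and between 70.1 and 114 CPM in the KO libraries (95.4 ± 16.2, n = 5), with a log2 fold change of -5.31 (SE 0.14, adjusted p = 9.5e-10). Total counts ran from 36026193 to 51008996 per library. The summed level of 12 corneal endothelial markers was 26010 to 29520 CPM in WT and 22410 to 26790 CPM in KO, and 4 of the 12, Slc4a11 among them, fell in KO. Without the deleted gene the other 11 summed to 22440 to 25880 CPM in WT and 22340 to 26680 CPM in KO. The 10 markers of stromal keratocytes summed to 66100 to 101300 CPM in WT and 69190 to 92520 CPM in KO, with none higher and 2 lower, so that keratocyte transcripts were abundant in every pool. The 11 markers of corneal epithelium summed to 51.7 to 182 CPM in WT. In KO they reached 1799 in KO 1, 561 in KO 2, 52.9 in KO 3, 211 in KO 4 and 3471 in KO 5, and 9 of the 11 passed the test as higher. The 5 Schwann cell and nerve markers summed to 56.7 to 64.9 CPM in WT and 79.5 to 113 CPM in KO, without overlap, and 4 of the 5 rose; their part in the results below was not tested. Of 7 lens markers, with sums of 7.75 to 10.6 and 10.7 to 16.5 CPM, 2 rose. Of 5 blood vessel markers 1 rose and 1 fell, and of 7 macrophage and 6 pigment cell markers none was called. Of 8 plasma and B cell markers, cells whose ER is unusually large, 7 were below 1 CPM in every library. In such bulk samples fewer cells of a type and less RNA per cell cannot be told apart.

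Across the 31 genes the KO libraries differed little from WT. Of the 31, 5 were higher in KO (16.1%), none was lower and 26 did not pass the test. Over all genes tested 7.59% were called higher, 7.73% lower and 15.3% in either direction. The 5 that rose were Sdf2l1, Edem2, Calr, Dnajb11 and Creld2, and their largest change was a log2 fold change of 0.48. The share called in either direction, 16.1%, was close to the background of 15.3%, while the direction of the calls was higher in 5 of 5. The median log2 fold change of the 31 was 0.10 against 0.00 over all genes tested, with 24 genes above 0 and 7 below it. At an unadjusted p under 0.05 there were 11 higher and 1 lower, where 15.4% and 15.7% of all genes were. DESeq2 called 8 higher and 1 lower, against 9.76% and 10.4% of all genes, and limma-voom called 3 higher and none lower, against 6.27% and 7.22%. KO and WT libraries did not overlap for Sdf2l1 and Edem2 among the 31, both higher in KO, and over all genes 5.88% did not overlap with KO higher and 6.16% with KO lower. The background was not matched for level. The 31 genes had a median WT level of 118.6 CPM and a median SE of 0.07, against 12.2 CPM and 0.10 over all genes tested. A small change is thus more readily called among the 31.

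The data limited most changes to a narrow range. The standard error of the log2 fold change had a median of 0.07 over the 31 genes and lay between 0.05 and 0.30. For 18 of the 31 the 95% confidence interval of the change stayed within 20% of the WT level in both directions. The same held for 5546 of the 17729 genes tested. The absolute log2 fold change was under 0.2 in 24 genes and at least 0.3 in 3 (Sdf2l1, Derl3 and Atf6b), of which only Sdf2l1 passed the test. How many of all genes had changes of these sizes was not counted.

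**Figure D1:**
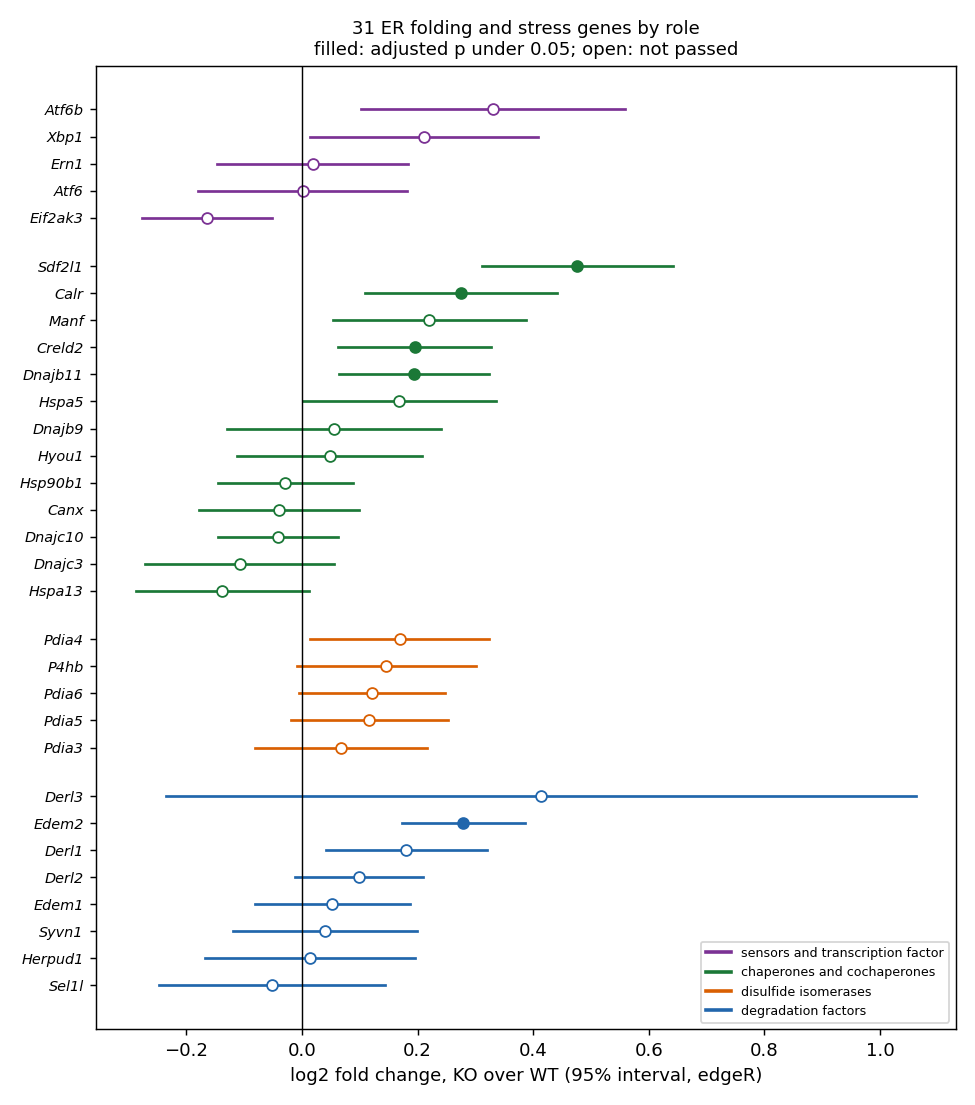
Log2 fold change of each of the 31 genes, KO over WT, ordered by role, with the 95% confidence interval from edgeR as a horizontal bar. The 5 genes past the adjusted p threshold of 0.05, Sdf2l1, Edem2, Calr, Dnajb11 and Creld2, lie right of 0 and no gene past it lies left.

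The promoters of these genes are known for the ER stress response element (ERSE), the site at which ATF6 acts together with the factor NF-Y. RefSeq promoter windows of GRCm38.p6, running from 250 bases before to 50 bases after the start, were held for 26 of the 31 genes. The ERSE was searched on both strands without mismatch, as CCAAT, 9 bases of any kind and CCACG. It was found in 9 of the 26 (34.6%), against 37 of 27025 genes with a window (0.137%). Several of these genes are those in which the element was first described, so the share is a description of the list. The matches are printed because they are a feature of 9 of these promoters that the counts do not show, 5′ to 3′ on the strand of the motif, with its fixed letters in capitals.
Hspa5, chr2:34772025-34772043, 65 bases before the start on the gene's strand: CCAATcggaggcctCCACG
Calr, chr8:84847075-84847093, 162 bases before the start on the opposite strand: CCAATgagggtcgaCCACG
Canx, chr11:50325800-50325818, 145 bases before the start on the gene's strand: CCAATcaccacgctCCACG
Creld2, chr15:88819520-88819538, 126 bases before the start on the opposite strand: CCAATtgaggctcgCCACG
Dnajc3, chr14:118937827-118937845, 105 bases before the start on the gene's strand: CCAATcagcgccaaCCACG
Hsp90b1, chr10:86705533-86705551, 107 bases before the start on the opposite strand: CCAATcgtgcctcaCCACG
Hsp90b1, chr10:86705638-86705656, 212 bases before the start on the gene's strand: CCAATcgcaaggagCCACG
Pdia6, chr12:17266491-17266509, 98 bases before the start on the gene's strand: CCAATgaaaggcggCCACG
Syvn1, chr19:6046532-6046550, 44 bases before the start on the gene's strand: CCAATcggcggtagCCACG
Derl3, chr10:75893242-75893260, 156 bases before the start on the opposite strand: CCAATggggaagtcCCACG

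A shorter form, ERSE-II, searched as ATTGG, 1 base of any kind and CCACG, was found in 2 of the 26 (7.69%) and in 12 of the 27025 genes (0.0444%). It shares the letters CCACG with the ERSE, and it is shown for the same reason, with its fixed letters in capitals.
Herpud1, chr8:94386377-94386387, 52 bases before the start on the gene's strand: ATTGGgCCACG
Dnajb11, chr16:22857852-22857862, 8 bases after the start on the gene's strand: ATTGGcCCACG

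The sequences were described beside the expression values without a test. Of the 11 genes with either element, 3 rose in KO (Calr, Creld2 and Dnajb11) and their median log2 fold change was 0.12. Of the 15 windows with neither, 2 belonged to genes that rose (Sdf2l1 and Edem2) and the median was 0.10. Over all genes tested 7.59% were called higher and 7.73% lower. The calls of Calr, Dnajb11 and Creld2 were lost in 11, 15 and 16 of 20 alternative fits. Those of Sdf2l1 and Edem2 held in 20 and 19 of them. With 1 mismatch allowed, the ERSE was found in 14 of 26 (53.8%) and in 466 of 27025 genes (1.72%). The core of the unfolded protein response element, TGACGTGG, to which XBP1 and ATF6 bind, was in none of the 26 and in 0.714% of genes, and TGATGNAAT, the C/EBP-ATF element of the PERK branch, was in none of the 26 and in 1.08% of genes. Outside the 31 genes, 28 others had an exact ERSE in the window, of which 12 were tested, 1 rose (Spats2l, named after its value was seen, log2 fold change 0.21, adjusted p = 0.045) and none fell. A match is a description of letters in the window and not of a bound site.

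The 250 bases before the start are shown for Creld2, which has an ERSE, and for Sdf2l1 and Edem2, which have neither element and yet had the smallest adjusted p of the 31. Each is on the strand of the gene, and the capitals in Creld2 mark the fixed letters of the ERSE as they read from the opposite strand.
Creld2, chr15:88819396-88819645, plus strand: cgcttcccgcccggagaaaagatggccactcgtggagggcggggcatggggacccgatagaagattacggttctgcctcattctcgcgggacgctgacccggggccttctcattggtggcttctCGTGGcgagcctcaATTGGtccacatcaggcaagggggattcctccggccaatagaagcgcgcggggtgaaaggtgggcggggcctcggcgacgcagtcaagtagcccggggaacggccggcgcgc
Sdf2l1, chr16:17132384-17132633, minus strand: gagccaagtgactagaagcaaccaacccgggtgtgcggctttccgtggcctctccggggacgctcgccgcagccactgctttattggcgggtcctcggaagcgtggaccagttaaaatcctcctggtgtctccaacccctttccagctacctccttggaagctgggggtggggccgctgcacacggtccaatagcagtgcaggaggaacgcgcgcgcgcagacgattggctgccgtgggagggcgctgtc
Edem2, chr2:155729476-155729725, minus strand: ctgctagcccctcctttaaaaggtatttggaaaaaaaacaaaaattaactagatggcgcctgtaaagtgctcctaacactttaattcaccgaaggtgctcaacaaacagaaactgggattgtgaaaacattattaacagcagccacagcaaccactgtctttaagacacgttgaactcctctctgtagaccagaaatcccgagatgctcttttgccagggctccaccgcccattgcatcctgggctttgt

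The Creld2 and Sdf2l1 windows had a GC content of 66% and 64%, and that of Edem2 had 44.4%.

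None of the 5 sensor and transcription factor genes passed the test, and their median log2 fold change was 0.02. At an unadjusted p under 0.05, 2 were higher and 1 was lower, against 15.4% and 15.7% of all genes. DESeq2 called 1 higher and 1 lower, against 9.76% and 10.4%, and limma-voom called none. Ern1, which encodes the kinase and endoribonuclease IRE1, had 23.7, 23.6, 26.2, 26.9 and 26.3 CPM in WT 1 to 5 and 28.4, 26.9, 25.8, 26.0 and 21.3 CPM in KO 1 to 5. The genotypes overlapped through their whole range, and the log2 fold change was 0.02 (SE 0.08, 95% confidence interval -0.15 to 0.18, adjusted p = 0.9). Atf6 had 70.6, 72.9, 82.1, 81.3 and 85.1 CPM in WT and 86.3, 82.4, 80.1, 79.9 and 63.9 CPM in KO. KO 5 was the lowest of the 10 libraries and KO 1 the highest, and the log2 fold change was 0.00 (SE 0.08, interval -0.18 to 0.18, adjusted p = 0.99).

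The relative of ATF6, Atf6b, and the PERK gene Eif2ak3 lay on opposite sides of 0, each with an adjusted p just above the threshold. Atf6b, which encodes a membrane-bound factor of the ATF6 family, had 11.1, 17.8, 15.5, 15.2 and 14.3 CPM in WT and 20.7, 18.2, 17.5, 19.0 and 17.6 CPM in KO. WT 1 was the lowest library and WT 2 lay within the KO range, and the log2 fold change was 0.33 (SE 0.11, interval 0.10 to 0.56, adjusted p = 0.052). Eif2ak3 had 60.4, 63.4, 67.9, 68.8 and 66.8 CPM in WT and 58.1, 61.8, 59.4, 55.5 and 57.3 CPM in KO. All KO libraries but KO 2 lay below the lowest WT library, and the log2 fold change was -0.16 (SE 0.05, interval -0.28 to -0.05, adjusted p = 0.052). DESeq2 called both, with adjusted p of 0.02 for Atf6b (0.02 to 0.27 over 20 alternatives) and 0.019 for Eif2ak3 (0.019 to 0.25). Eif2ak3 was the gene of the 31 with at least 4 KO libraries below the lowest WT library.

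Xbp1, the transcription factor whose message IRE1 splices, had 174.7, 147.9, 144.4, 190.9 and 153.7 CPM in WT. In KO it had 190.6, 201.3, 160.3, 183.6 and 203.8 CPM. KO 2 and KO 5 lay above all WT libraries, while KO 1, KO 3 and KO 4 did not, and the log2 fold change was 0.21 (SE 0.09, interval 0.01 to 0.41, adjusted p = 0.13). It was 0.09 when KO 1, KO 2 and KO 5, which had the most epithelial transcripts, were left out. Reads from unspliced and spliced Xbp1 are summed in a count per gene.

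Of the 13 chaperones and cochaperones, 4 rose in KO, none fell and 9 did not pass, beside 7.59% higher and 7.73% lower over all genes, with a median log2 fold change of 0.06. At an unadjusted p under 0.05, 6 were higher and none lower, against 15.4% and 15.7% of all genes. The genes that rose were Sdf2l1, Calr, Dnajb11 and Creld2, and those that did not pass included the main Hsp70 and Hsp90 chaperones of the ER, Hspa5 and Hsp90b1.

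Hspa5 encodes BiP, the Hsp70 chaperone that holds the sensors inactive and serves as the customary readout of the response. It had 1051, 970.3, 1053, 1137 and 1110 CPM in WT and 1249, 1344, 1039, 1194 and 1155 CPM in KO. All KO libraries but KO 3 lay above the highest WT library, and KO 3 lay within the WT range. The log2 fold change was 0.17 (SE 0.08, interval 0.002 to 0.34, adjusted p = 0.16), from 1064 ± 64.4 CPM to 1196 ± 113 CPM (SD, n = 5 each). Without KO 1, KO 2 and KO 5 it was 0.08, and with the epithelial markers as a covariate 0.12. Hsp90b1, the Hsp90 of the ER known as GRP94, had 819.7, 842.2, 867.5, 865.8 and 888.7 CPM in WT and 819.4, 847.1, 802.5, 867.7 and 862.6 CPM in KO. Its genotypes overlapped, at a log2 fold change of -0.03 (SE 0.05, interval -0.15 to 0.09, adjusted p = 0.75).

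Sdf2l1, which encodes an ER protein found with BiP and its J protein partners, had the largest change and the smallest adjusted p of the 31. Sdf2l1 (ENSMUSG00000022769.9, chr16:17130138-17132383, minus strand, GRCm38) had 11.6, 12.6, 10.9, 12.7 and 12.4 CPM in WT and 16.7, 17.1, 14.2, 18.3 and 17.5 CPM in KO. Every KO library lay above every WT library, and KO 3 was the lowest of KO. Its log2 fold change was 0.48 (SE 0.08, interval 0.31 to 0.64, adjusted p = 0.0017), a rise of 39.1%. It was called under all 20 alternatives run, at 0.41 to 0.53, with adjusted p from 1.6e-06 to 0.046. Its level was low beside the main chaperones, at 10.9 CPM per kilobase of exon in WT against 251.7 for Hspa5.

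Calr encodes calreticulin, the soluble lectin chaperone that binds newly made glycoproteins and calcium. Calr (ENSMUSG00000003814.8, chr8:84841850-84846934, minus strand) had 623.5, 539, 513.7, 651.7 and 594.4 CPM in WT and 707.7, 740.6, 643.4, 702.9 and 742.3 CPM in KO. KO 3 lay below WT 4 and the other KO libraries lay above all WT libraries. The log2 fold change was 0.28 (SE 0.08, interval 0.11 to 0.44, adjusted p = 0.03), a rise of 21.0%. The call was lost in 11 of 20 alternatives, whose adjusted p ran from 0.004 to 0.32. Among them were the fits with the epithelial markers as a covariate (0.24, adjusted p = 0.2), without KO 1, KO 2 and KO 5 (0.21, adjusted p = 0.32), and those without WT 2, WT 3, WT 5, KO 1, KO 2, KO 4 or KO 5. Canx, its membrane-bound relative calnexin, lay between 545.3 and 640.5 CPM in WT and between 550.8 and 598.3 CPM in KO, at a log2 fold change of -0.04 (SE 0.06, adjusted p = 0.72).

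Dnajb11, also named ERdj3, is a J protein that hands unfolded chains to BiP. Dnajb11 (ENSMUSG00000004460.17, chr16:22857845-22879634, plus strand) had 80.6, 80.3, 74.9, 83.5 and 76.8 CPM in WT and 90.01, 91.4, 81.2, 90.8 and 99.8 CPM in KO. KO 3 lay below WT 4, and the other KO libraries lay above all WT libraries. The log2 fold change was 0.19 (SE 0.06, interval 0.06 to 0.32, adjusted p = 0.046), a rise of 14.4%. The call was lost in 15 of 20 alternatives (adjusted p 0.017 to 0.4 over the 20), among them every library left out but KO 3, the epithelial covariate (0.11, adjusted p = 0.4) and the joint omission of KO 1, KO 2 and KO 5 (0.12, adjusted p = 0.38).

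Creld2, an ER-resident protein of the secretory pathway with a known link to ER stress, had a similar size of change. Creld2 (ENSMUSG00000023272.4, chr15:88819646-88826683, plus strand) had 48.8, 54.5, 52.6, 55.9 and 57.3 CPM in WT and 60.2, 63.8, 55.3, 65.0 and 63.8 CPM in KO. Only KO 3 lay within the WT range. The log2 fold change was 0.19 (SE 0.06, interval 0.06 to 0.33, adjusted p = 0.048), a rise of 14.5%. The call was lost in 16 of 20 alternatives (adjusted p 0.02 to 0.31 over the 20), again with every library left out but KO 3, with the epithelial covariate (0.16, adjusted p = 0.27) and without KO 1, KO 2 and KO 5 (0.17, adjusted p = 0.31).

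Manf, which encodes a small ER protein that binds BiP and is secreted under stress, had 110.3, 103.8, 102.7, 118.6 and 102.5 CPM in WT. In KO it had 121, 134.4, 105.5, 127.1 and 139 CPM. KO 3 again lay within the WT range, and the log2 fold change was 0.22 (SE 0.08, interval 0.05 to 0.39, adjusted p = 0.071). DESeq2 called it, with an adjusted p of 0.04 (0.016 to 0.52 over 20 alternatives), and so did the fit without KO 3. Exons of Manf overlap those of Dcaf1 on the opposite strand and of Rbm15b on the same strand, and no source used here says whether reads were assigned by strand, so its value is uncertain to that extent.

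The other 5 chaperone and cochaperone genes lay near their WT levels. Hyou1, an Hsp70-like protein that exchanges nucleotides on BiP, had a log2 fold change of 0.05 (SE 0.07). Dnajb9, or ERdj4, a J protein that keeps IRE1 bound to BiP, had 0.06 (SE 0.08). Values below 0 were found for Hspa13, an Hsp70-like protein of microsomes (-0.14, SE 0.07), and for Dnajc3, a J protein also known as an inhibitor of PERK (-0.11, SE 0.08). Dnajc10, or ERdj5, a J protein that also reduces disulfide bonds, had -0.04 (SE 0.05). Their adjusted p lay between 0.2 for Hspa13 and 0.7 for Hyou1 and Dnajb9, and the genotypes overlapped in all 5.

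**Figure D2:**
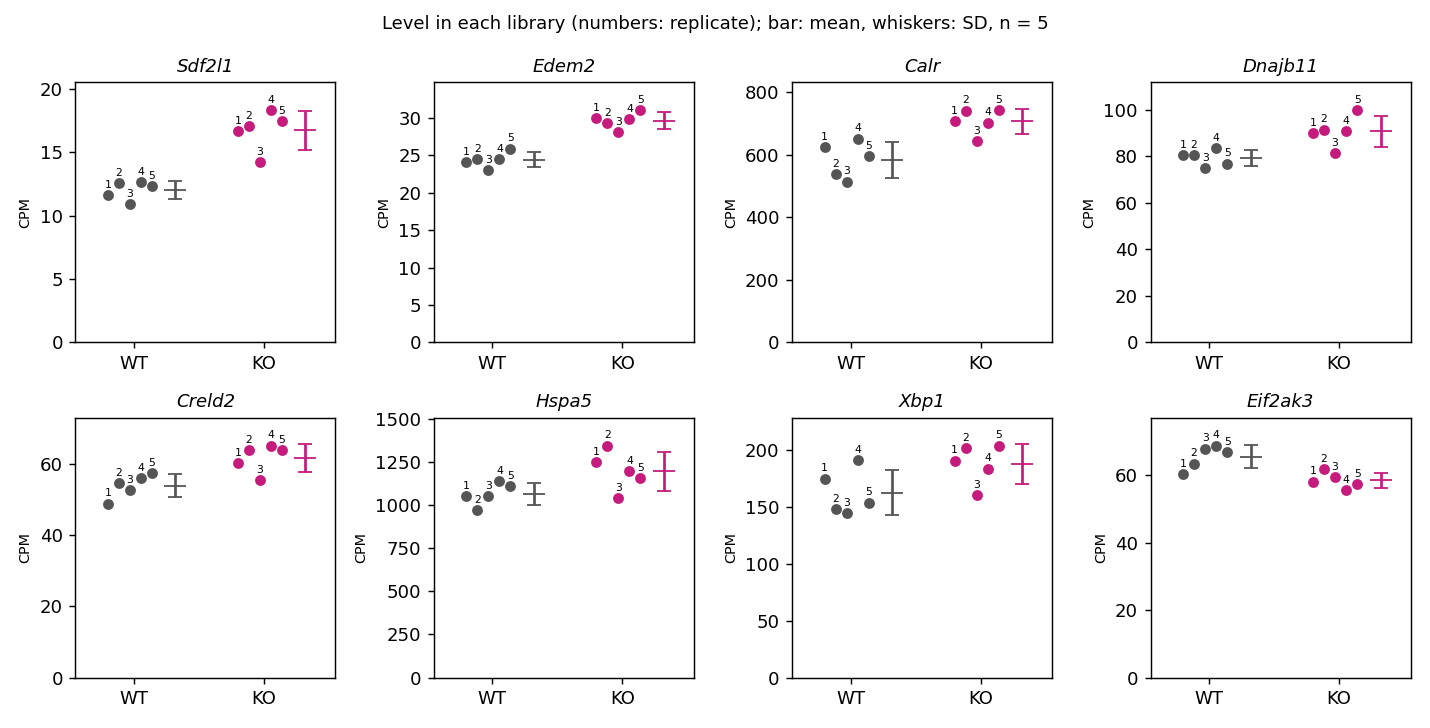
CPM of selected genes in each library, with 1 panel per gene, WT and KO libraries as points and the mean with its SD beside them. The KO points of Sdf2l1 and Edem2 lie above all WT points, whereas KO 3 falls within the WT range for Calr, Dnajb11, Creld2 and Hspa5.

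None of the 5 disulfide isomerases passed the test, but all 5 lay above 0, from 0.07 to 0.17 on the log2 scale, with a median of 0.12. At an unadjusted p under 0.05, 1 was higher and none lower, against 15.4% and 15.7% of all genes. Neither DESeq2 nor limma-voom called any. P4hb, the founding protein disulfide isomerase and also the beta subunit of collagen prolyl 4-hydroxylase, had 929.2, 772.8, 752, 925.9 and 846.3 CPM in WT and 950.3, 948.6, 905.9, 934.7 and 937.8 CPM in KO. The KO libraries lay close together, all but KO 3 above the highest WT library, and the log2 fold change was 0.15 (SE 0.07, interval -0.01 to 0.30, adjusted p = 0.18). Pdia4, or ERp72, had 213.5, 173.6, 177.6, 212.4 and 200.3 CPM in WT and 219.2, 225.7, 203.1, 228.9 and 222.1 CPM in KO. All KO libraries of Pdia4 but KO 3 lay above the highest WT library, at a log2 fold change of 0.17 (SE 0.07, interval 0.01 to 0.32, adjusted p = 0.13).

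Pdia3, or ERp57, which forms disulfide bonds in glycoproteins held by calnexin and calreticulin, had a log2 fold change of 0.07 (SE 0.07, adjusted p = 0.53). Pdia6 had 0.12 (SE 0.06, adjusted p = 0.18), from 382.2 ± 22.2 to 415.6 ± 15.5 CPM, and Pdia5 had 0.12 (SE 0.06, adjusted p = 0.22), from 23.2 ± 1.57 to 25.2 ± 1.553 CPM. Summed over the 5 isomerases, the level was 2088 to 2487 CPM in WT and 2357 to 2547 CPM in KO, so that the genotypes overlapped. Without KO 1, KO 2 and KO 5, 4 of the 5 lay above 0 and the median was 0.13.

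Of the 8 degradation factors, 1 rose and none fell, beside 7.59% and 7.73% over all genes, and 7 were not called, with a median log2 fold change of 0.08. At an unadjusted p under 0.05, 2 were higher and none lower, against 15.4% and 15.7% of all genes. DESeq2 called 2 higher, against 9.76% of all genes. Edem2 encodes a protein that takes part in trimming mannose from misfolded glycoproteins, which marks them for removal. Edem2 (ENSMUSG00000038312.10, chr2:155701677-155729475, minus strand) had 24.1, 24.5, 23.1, 24.5 and 25.9 CPM in WT and 29.97, 29.3, 28.1, 29.9 and 31.1 CPM in KO. All 5 KO libraries lay above all 5 WT libraries, and the spread within each genotype was small. The log2 fold change was 0.28 (SE 0.05, interval 0.17 to 0.39, adjusted p = 0.0029), a rise of 21.4%. The call held in 19 of 20 alternatives and was lost without KO 1, KO 2 and KO 5 (0.25, adjusted p = 0.086, with 3.2e-05 to 0.086 over the 20). Edem2 lies 25 Mb from Slc4a11 on chromosome 2, which also carries Hspa5, Dnajc10 and Pdia3, at 95.9, 50.3 and 9.25 Mb from it. Tmx4 (chr2:134594185-134644145) and Creb3l1 (chr2:91982328-92024502), called genes described below, share the chromosome with Slc4a11 (chr2:130684113-130697519). By these coordinates Tmx4 lies nearer to Slc4a11 than Pdia3 does. Whether position bears on any of these values was not tested.

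Edem1, its relative with a similar role, was not called, at a log2 fold change of 0.05 (SE 0.06, interval -0.08 to 0.19, adjusted p = 0.6). Derl1, one of the membrane proteins through which misfolded chains leave the ER, had 161.6, 141.4, 131, 155.8 and 140.9 CPM in WT and 172, 164.7, 157.2, 171 and 163.3 CPM in KO. All KO libraries but KO 3 lay above the highest WT library, and the log2 fold change was 0.18 (SE 0.06, interval 0.04 to 0.32, adjusted p = 0.075), which DESeq2 called (adjusted p = 0.044, with 0.027 to 0.32 over 20 alternatives). Its relative Derl2 had 0.10 (SE 0.05, adjusted p = 0.2).

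Derl3, the third relative, lay near the detection limit, with 9 to 24 counts per library. It had 0.246 to 0.44 CPM in WT and 0.215 to 0.644 CPM in KO, and the log2 fold change of 0.41 had an SE of 0.30 and an interval from -0.24 to 1.06, so that the direction of its change was not settled at this depth. The remaining degradation factors form the ubiquitin ligase complex of the ER membrane. Sel1l, its adaptor, had -0.05 (SE 0.09), Syvn1, the ligase HRD1, had 0.04 (SE 0.07), and Herpud1, a membrane protein that organises the complex, had 0.01 (SE 0.08), with adjusted p from 0.74 to 0.93. Syvn1, Derl2 and Hsp90b1 overlap exons of an expressed gene on the opposite strand (Mrpl49, Mis12 and 1810014B01Rik), so their values carry the same reservation as that of Manf.

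Levels were compared between genes as CPM per kilobase of exon. In WT the most abundant of the 31 were P4hb at 295.4, Pdia3 at 270.6, Hspa5 at 251.7, Hsp90b1 at 212.5 and Calr at 202.9 CPM per kilobase, all at or above the 99th percentile of the genes tested. The order of the first 3 is close relative to the spread between libraries. Canx (127.1), Pdia6 (102) and Dnajc3 (93.5) followed. Herpud1 (81) was the most abundant degradation factor. Apart from Xbp1 (50), the sensor and transcription factor genes were among the less abundant, with Eif2ak3 at 10.9, Atf6 at 8.49, Atf6b at 5.36 and Ern1 at 3.1 CPM per kilobase. Derl3, at 0.155, was the lowest of all. The 31 genes summed to 7800 CPM in WT, 0.78% of the total, and to 8258 CPM in KO.

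**Figure D3:**
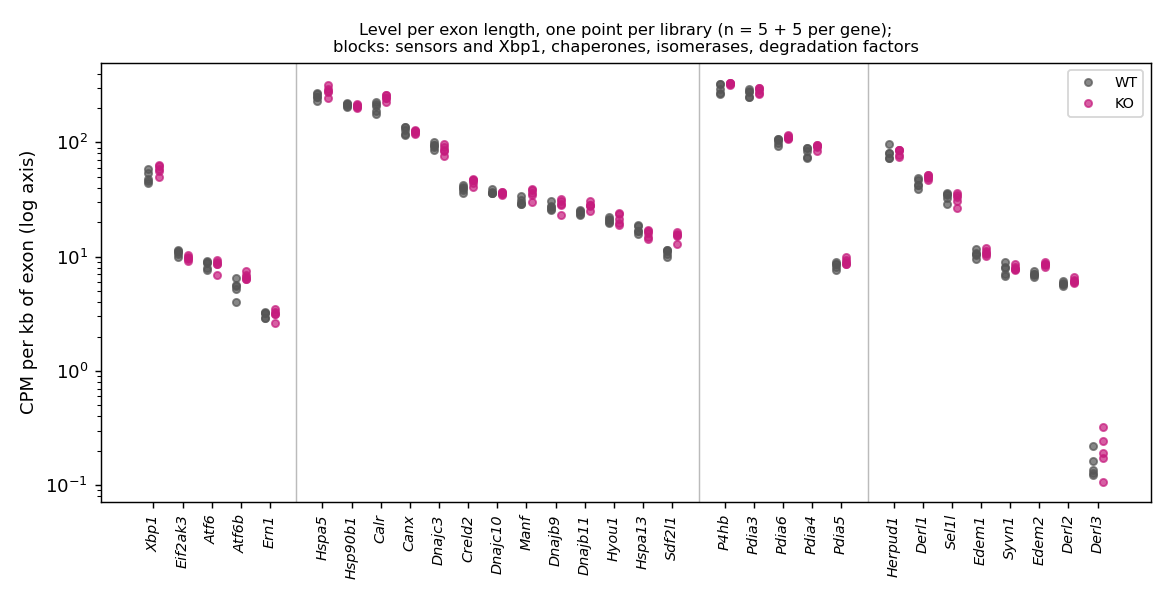
CPM per kilobase of exon of each of the 31 genes on a log axis, grouped by role, with 1 point per library. P4hb, Pdia3, Hspa5, Hsp90b1 and Calr have WT means of 202.9 to 295.4 and Derl3 one of 0.155, and the WT and KO points of each gene lie close together on this scale.

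The libraries differed among themselves in a way that touched many of the 31 genes at once. KO 3 was the lowest KO library for 19 of the 31 genes, and KO 5 for 9. WT 4 was the highest WT library for 19. The median deviation of the 31 genes from their own mean over the 10 libraries was 0.10 in KO 1, 0.10 in KO 2, -0.03 in KO 3, 0.03 in KO 4 and 0.06 in KO 5 on the log2 scale. In WT 1 to 5 it was -0.04, -0.12, -0.13, 0.06 and -0.02. WT 4 thus lay above KO 3 and KO 4 and level with KO 5 at this precision. For 11 genes at least 4 KO libraries lay above the highest WT library, and for 1 at least 4 lay below the lowest. How many of all genes do so was not counted, so these counts have no background to be read against. KO 3 also had the lowest epithelial marker sum of the KO libraries (52.9 CPM), and KO 1, KO 2 and KO 5 had the highest (1799, 561 and 3471 CPM). Within WT, by contrast, WT 2 and WT 3 had the highest epithelial sums (182 and 150 CPM) and the lowest deviations. The keratocyte sum was highest in WT 4 (101300 CPM) and lowest in WT 2, KO 4, KO 3 and WT 3 (66100, 69190, 73280 and 74150 CPM). KO 3 had the highest pigment cell and lens sums of all libraries (16.1 and 16.5 CPM). How these sums bear on the 31 genes was not tested beyond the fits below.

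The counts of genes called moved with these libraries. With the mean of the epithelial markers as a covariate 2 of the 31 genes were called higher (Sdf2l1 and Edem2) and none lower, against 2.89% and 3.56% of all genes. Without KO 1, KO 2 and KO 5 1 was called higher (Sdf2l1), against 2.86% of all genes, and the median of the 13 chaperones was -0.01 against 0.06 with all libraries. With the keratocyte markers as a covariate 7 of the 31 were called higher (Sdf2l1, Edem2, Calr, Xbp1, P4hb, Pdia4 and Derl1), with a median of 0.15, against 6.99% higher and 8.88% lower over all genes. The part of epithelial transcripts in the changes of Calr, Dnajb11 and Creld2 was not tested beyond these fits. With the epithelial covariate, or without KO 1, KO 2 and KO 5, calls can also be lost through lower power.

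**Figure D4:**
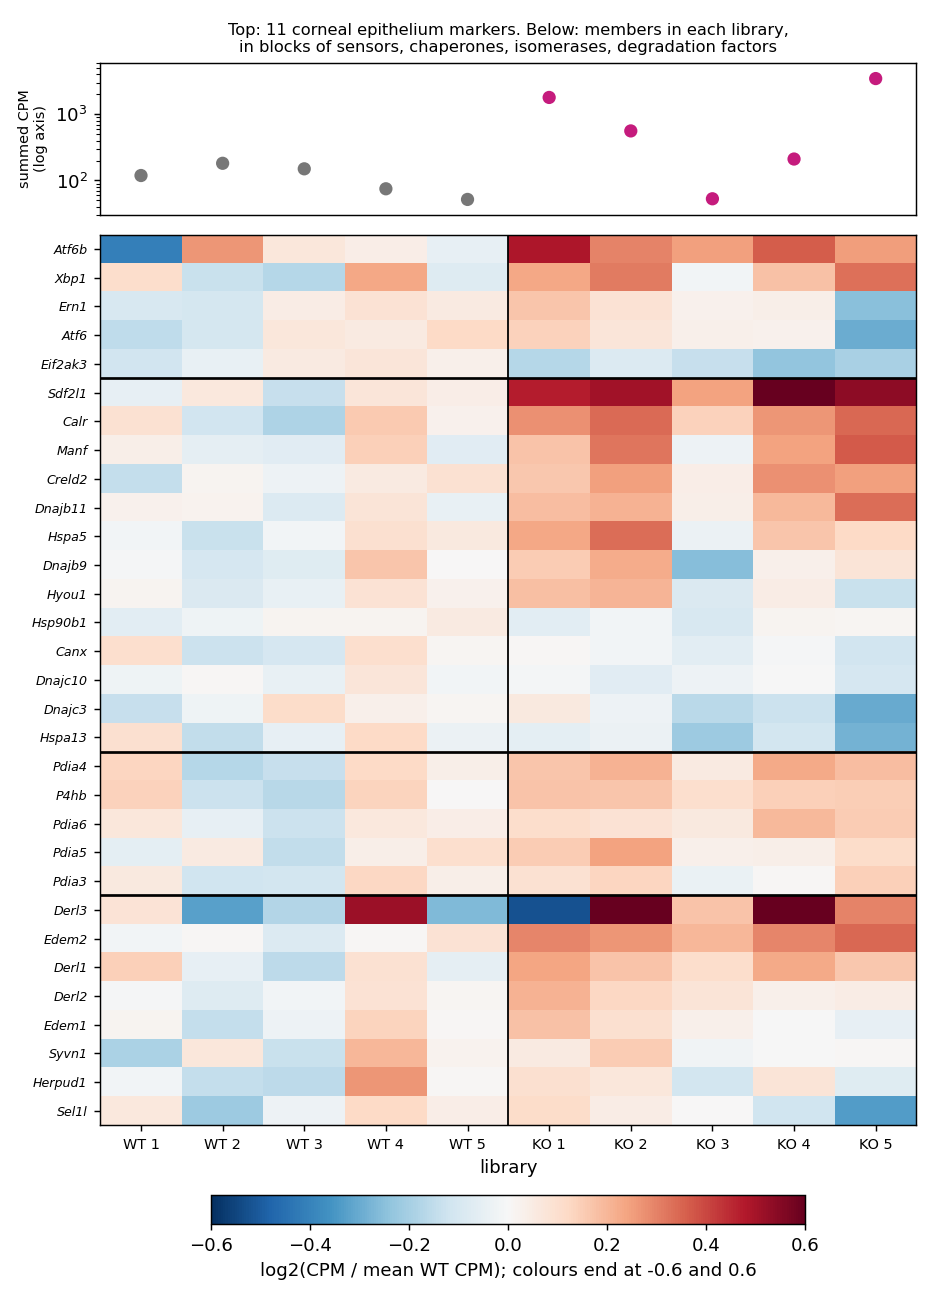
Log2 ratio of each gene's CPM to its mean WT CPM (colour, ending at -0.6 and 0.6), with genes in rows by role and libraries in columns, below the summed CPM of the 11 epithelial markers in each library on a log axis. KO 1 and KO 2 are above the WT mean for most genes, while KO 3 is mostly paler and WT 2 and WT 3 mostly lie below it.

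The wider ER machinery was described with a list of 90 other genes in 8 roles. All 90 were tested, of which 9 were higher in KO (10%), 8 were lower (8.89%) and 73 did not pass, with a median log2 fold change of 0.06. Both shares were close to those over all genes tested (7.59% and 7.73%). The largest falls were those of P4ha2 and Plod2, enzymes that modify collagen in the ER, and the largest rise was that of the transcription factor Creb3l1.

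Of 16 genes for collagen folding, 2 rose and 4 fell, where 7.59% of all genes rose and 7.73% fell. Plod2, a lysyl hydroxylase that prepares collagen for cross-linking, had 76.6, 91.6, 88.8, 69.2 and 80.2 CPM in WT and 42.9, 41.8, 45.04, 42.3 and 37.1 CPM in KO. The genotypes were far apart, at a log2 fold change of -0.96 (SE 0.08, adjusted p = 2e-05). P4ha2, an alpha subunit of prolyl 4-hydroxylase, had 101.8, 132.6, 103.5, 104.2 and 113.7 CPM in WT and 53.8, 46.9, 63.2, 60.7 and 58.3 CPM in KO, at -0.97 (SE 0.09, adjusted p = 5.8e-05). The other alpha subunits fell as well, P4ha1 from 457.7 ± 21.0 to 338 ± 18 CPM (-0.44, SE 0.06, adjusted p = 5.3e-04) and P4ha3 from 5.49 ± 0.75 to 3.69 ± 0.57 CPM (-0.57, SE 0.13, adjusted p = 0.013). All 3 alpha subunits thus fell, while P4hb, the beta subunit with which they assemble, was not called and had a log2 fold change of 0.15. The call of P4ha3 was lost with the epithelial covariate, at -0.52 (adjusted p = 0.091, with 4.5e-04 to 0.091 over 20 alternatives).

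In the same role P3h2, a prolyl 3-hydroxylase, rose from 13.0 ± 2.91 to 21.3 ± 2.24 CPM (log2 fold change 0.71, SE 0.14, adjusted p = 0.0051), with no overlap between the genotypes. Its relative P3h1, named after its value was seen, rose by 0.20 (adjusted p = 0.028), a call lost in 9 of 20 alternatives. Serpinh1, the collagen chaperone HSP47, named after its value was seen, was the most abundant of the 16 in CPM and was not called, with 1029 ± 122 CPM in WT against 1098 ± 48.6 CPM in KO (0.09, SE 0.08, adjusted p = 0.47).

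Of 14 further genes for oxidative folding, 1 rose and 3 fell, where 7.59% of all genes rose and 7.73% fell. Ero1l, the oxidase that recharges the protein disulfide isomerases, had 69.7, 76.1, 75.8, 66.0 and 71.8 CPM in WT and 62.3, 52.1, 55.6, 55.1 and 52.6 CPM in KO. Every KO library lay below every WT library, at a log2 fold change of -0.37 (SE 0.06, adjusted p = 0.0023). None of the 5 isomerases described above passed the test in either direction. Txndc12, a thioredoxin-like protein of the ER, rose from 44.5 ± 2.35 to 54.8 ± 3.31 CPM (0.30, SE 0.06, adjusted p = 0.0045). Tmx3, a membrane-bound isomerase, fell by 0.29 (SE 0.07, adjusted p = 0.02), a call lost with the epithelial covariate (-0.32, adjusted p = 0.067, with 0.0017 to 0.078 over 20 alternatives), and Tmx4, named after its value was seen, fell by 0.21 (adjusted p = 0.029), a call lost in 10 of 20 alternatives (-0.24 to -0.16).

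Of 5 proteases and membrane factors related to the ATF6 branch, 2 rose and none fell, where 7.59% of all genes rose and 7.73% fell. Creb3l1, also named OASIS, a membrane-bound transcription factor released by cleavage as ATF6 is and known for its role in collagen secretion by bone, had 46.8, 38.1, 30.8, 41.1 and 35.9 CPM in WT and 70.5, 85.9, 61.8, 61.3 and 65.5 CPM in KO. All KO libraries lay above all WT libraries, at a log2 fold change of 0.84 (SE 0.12, adjusted p = 7.2e-04). This was larger than the change of any of the 5 sensor and transcription factor genes described above. Its relative Creb3, named after its value was seen, rose by 0.16 (adjusted p = 0.047), a call lost in 15 of 20 alternatives, and its exons overlap the abundant gene Tln1 on the opposite strand.

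The message of the PERK branch did not pass the test in any of its 7 genes, whose median log2 fold change was 0.05. At an unadjusted p under 0.05, 2 were higher and none lower, against 15.4% and 15.7% of all genes. DESeq2 called 1 higher, against 9.76% of all genes, and limma-voom none. Among them, Ddit3, the stress factor CHOP, had 13.2 ± 1.26 CPM in WT and 13.2 ± 2.15 CPM in KO, at a log2 fold change of 0.01 (SE 0.11, adjusted p = 0.98). Exons of Ddit3 overlap those of the more abundant Mars on the opposite strand and of another entry named Ddit3 on the same strand. Its value thus carries the same reservation as that of Manf. Atf4, whose protein is made when PERK is active, had 0.20 (SE 0.08, adjusted p = 0.13), and Trib3, a target of both, had 0.27 (SE 0.09, adjusted p = 0.067). These 3 were named after their values were seen.

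Of 17 genes for extraction and ubiquitination in ER-associated degradation, 3 rose and none fell, where 7.59% of all genes rose and 7.73% fell. All 17 lay above 0, with a median of 0.09, where 8956 of the 17729 genes tested lay above 0. Selenos, a selenoprotein of the extraction complex, rose from 109.4 ± 2.33 to 127.7 ± 7.53 CPM (0.22, SE 0.05, adjusted p = 0.015). Ubxn8 and Aup1, membrane proteins of the degradation machinery, rose by 0.26 and 0.27 (adjusted p = 0.015 and 0.017). The calls of all 3 were lost with the epithelial covariate, where the log2 fold changes were 0.15 for Selenos, 0.28 for Ubxn8 and 0.28 for Aup1, and without KO 1, KO 2 and KO 5, where they were 0.18, 0.27 and 0.31. Exons of Aup1 overlap those of Htra2 on the opposite strand. Of 7 BiP cofactors and other J proteins, Dnajb12 rose by 0.17 (adjusted p = 0.048) and Sec63 fell by 0.18 (adjusted p = 0.038), both named after their values were seen, and each call was lost in 14 of 20 alternatives. Among 11 genes for glycan quality control none passed, with 1 higher and 1 lower at an unadjusted p under 0.05, none higher and 1 lower by DESeq2 and none by limma-voom. Among 13 genes of the translocon and signal sequence complexes none passed, with 2 higher and 1 lower at an unadjusted p under 0.05. DESeq2 called 1 of the 13 higher and 1 lower, and limma-voom called none. Over all genes, 15.4% were higher and 15.7% lower at that unadjusted p, and 9.76% and 10.4% by DESeq2.

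**Figure D5:**
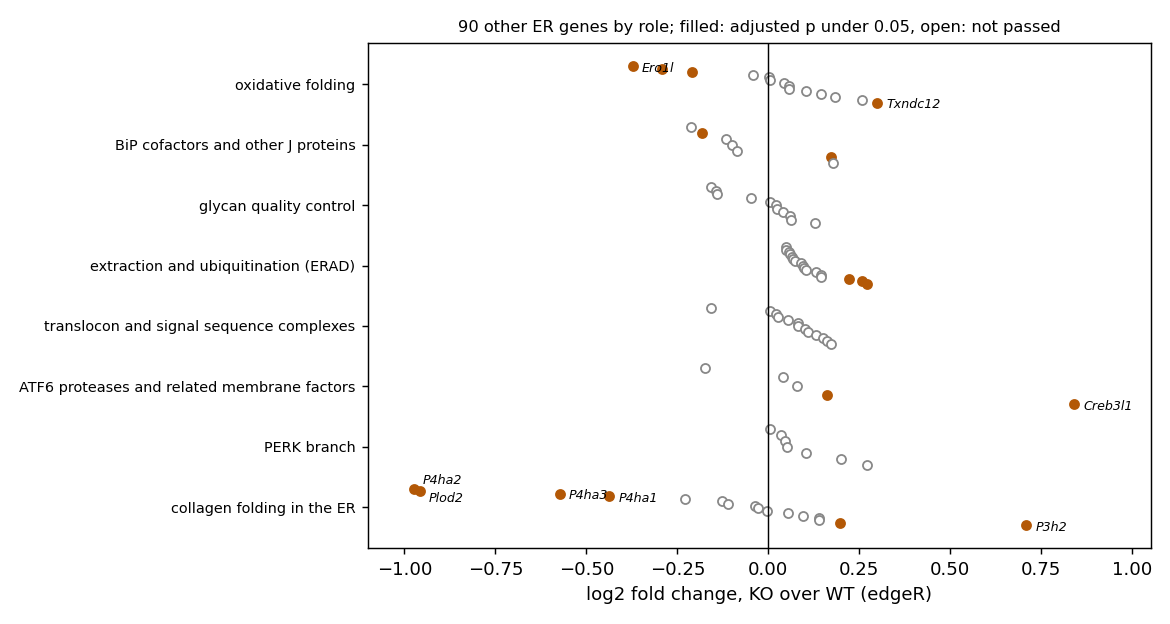
Log2 fold change, KO over WT, of the 90 genes of the wider ER list, with 1 point per gene and 1 line per role, filled where the adjusted p was under 0.05. The collagen-folding genes spread from -0.97 for P4ha2 to 0.71 for P3h2, Creb3l1 lies at 0.84, and all points for extraction and ubiquitination lie right of 0.

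Of the 17 called genes in the wider list, Plod2, P4ha1, P4ha2, P3h2, Ero1l, Txndc12 and Creb3l1 were called under all 20 alternatives. Of the 5 called among the 31, only Sdf2l1 was.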

How the data were processed

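Polyadenylated RNA from 10 pools was sequenced, 5 per genotype as labelled. The table deposited by the authors holds raw counts for every gene in each library. Per the labels' protocols, each pool held 6 peelings from 3 animals, and libraries were made with a stranded kit and sequenced in paired-end mode. The genome GRCm38.p6, the aligner HISAT2 2.1.0, featureCounts of Subread 1.6.4, and Trim Galore 0.6.4 with cutadapt 2.4 appear in the submitters' processing notes. The sources used here do not give the strand setting, the treatment of reads mapping to several places or the annotation release of the counting.

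All 55450 identifiers matched GENCODE vM21, from which symbols, coordinates and exon lengths were taken. The test was made in edgeR 4.0.16 under R 4.3.3, with filterByExpr (minimum count 10, minimum total 15), TMM scaling and the quasi-likelihood F test without covariates, adjusted by Benjamini-Hochberg over the 17729 genes kept. Every adjusted p is from this test unless another tool or setting is named. Standard errors and 95% intervals come from the same fit. Total counts ranged from 36026193 to 51008996 per library, and counting error adds to the spread between pools most for genes with few counts, such as Derl3, and to a lesser degree Sdf2l1 and Edem2. The common biological coefficient of variation was 16.3%. The p-values measure the spread between pools.

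The members and lists were chosen with earlier results of these data known. Named genes were Slc4a11, every member, and the 6 called genes of the wider list with the smallest p in each direction. Others are marked as named after their values were seen. Every pair of libraries of a genotype differed by more than sampling noise, with a chi-square divided by its degrees of freedom of 14.5 to 86. The 20 alternatives were DESeq2 size factors, total counts only, DESeq2 1.42.0, limma-voom (limma 3.58.1), no filter, at least 1 CPM in at least 5 libraries, the replicate number as a block, the mean log2 CPM (prior count 2) of the epithelial or of the keratocyte markers as a covariate, KO 1, KO 2 and KO 5 left out together, and each library left out in turn. A threshold of 0.01 was also tried. Promoter windows were from RefSeq.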

Additional observations from a re-analysis of the deposited data

Results flagged for a closer look

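Of 62 groups examined, the 5 libraries of each genotype for each of the 31 genes, 1 held a library that stood apart from the others of its group. Atf6 was at 63.9 CPM in KO 5, while the nearest KO library had 79.9 CPM and the highest 86.3 CPM, so that the gap took up 0.712 of the group's range against a critical value of 0.71. Chance alone gives such a library in about 1 in 20 groups. KO 5 also had the highest epithelial marker sum, 3471 CPM, and whether this bears on Atf6 was not tested.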

How the results depend on the processing

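Both the counts of genes called and the fold changes depended on the setting. Over the 20 alternatives the log2 fold change ran from 0.09 to 0.335 for Xbp1 and from -0.098 to 0.142 for Dnajb9. For Edem2 it ran from 0.25 to 0.31. Of the 31 genes, where 5 were higher and 0 lower, the number higher was 9 with total counts only, 8 with DESeq2, 3 with limma-voom, 2 without a filter, 2 with the epithelial covariate, 1 without KO 1, KO 2 and KO 5, 2 at an adjusted p under 0.01 and 2 to 6 with a library left out. The number lower was 1 (Eif2ak3) with DESeq2 size factors, with DESeq2 and with the 1 CPM filter, and 0 to 1 with a library left out. In the wider list, whose uncalled genes were not followed one by one, where 9 were higher and 8 lower, the number higher was 14 with total counts only, 4 with the epithelial covariate, 3 without KO 1, KO 2 and KO 5, 3 at 0.01 and 6 to 11 with a library left out, and the number lower was 5 with the epithelial covariate, 4 at 0.01 and 6 to 9 with a library left out. Over all genes, 1346 higher and 1370 lower became 513 and 631 with the epithelial covariate, 527 and 578 without KO 1, KO 2 and KO 5 and 450 and 574 at 0.01, and with a library left out 836 to 1532 and 965 to 1666. Total counts only gave 1555 higher and 1054 lower and moved the median of all genes to 0.03. A stricter threshold calls fewer genes by construction, and the cause of the other shifts was not tested.

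The replicate numbers did not pair the libraries. Deviations of same-numbered libraries correlated at -0.416 to 0.0851, and no WT library correlated best with the KO library of its own number. With the replicate number as a block 2 of the 31 genes were higher, 5 of the wider list were lower and 750 of all genes were higher.

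Among the 31 genes, signs changed in genes that were not called. They were Ern1 (-0.0172 to -0.00219 without WT 1, WT 2 or KO 1, up to 0.0812 without KO 5), Atf6 (-0.00208 with limma-voom, -0.00199 with the replicate block, and -0.0317 to 0.0697 with a library left out), Hyou1 (-0.0149), Pdia3 (-0.0112), Herpud1 (-0.00779), Syvn1 (-0.00528) and Dnajb9 (-0.098) without KO 1, KO 2 and KO 5, Dnajb9 (-0.0578) and Sel1l (0.0257) with the epithelial covariate, Canx (0.0361) and Sel1l (0.0624) with the keratocyte covariate, and, with a library left out, Herpud1 (-0.0243 to 0.0918), Sel1l (-0.102 to 0.0138) and Syvn1 (-0.00133 to 0.0972).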
